A study of Mus musculus with 6 samples.

Results

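The genes described here are 10 genes of amino acid supply and of the stress response that governs it. They are the carriers Slc7a5, Slc3a2, Slc1a5, Slc38a1 and Slc38a2, the transcription factor Atf4, its targets Asns and Chac1, and the serine synthesis enzymes Phgdh and Psat1. They were taken by name from the 54532 genes of the expression table, which held all 10. C57BL/6 mice gave bone marrow (BM) cells, whose RNA was sequenced at day 100 after transplantation. The donor cells were lineage-negative marrow cells that had been given JAK3 M511I, an activated form of a Janus kinase, together with GFP on a retrovirus, and both groups carried it. The Phf6 wild-type (WT) group was Phf6 fl/y without Cre, and the Phf6 knockout (KO) group was Vav1-Cre;Phf6 fl/y, in which the Vav1 promoter drives Cre in blood cells, with 3 libraries in each group. Donors and recipients were male mice, and the marrow of a recipient can still hold host cells. The sample labels name BM only and do not say whether GFP+ cells were sorted, or whether the libraries of a group came from separate mice, so the p-values measure the spread between these libraries, which may be technical. The gene symbol in the genotype labels counts upward from sample to sample, and it was read as Phf6 from the design text of the series.

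Cells take up large neutral amino acids such as leucine through a carrier made of a transporting chain, Slc7a5, and a glycoprotein chain, Slc3a2, that brings it to the cell surface. Slc1a5, Slc38a1 and Slc38a2 carry glutamine and other small neutral amino acids with sodium, and T cells need such uptake to grow. When amino acids are short, the kinase Eif2ak4 phosphorylates eIF2, general translation slows, and translation of Atf4 rises. Atf4 then acts with C/EBP partners on genes of amino acid uptake and synthesis, among them Asns, Chac1, Phgdh, Psat1 and Slc3a2. Because Atf4 is controlled largely at translation, the level of its RNA is not a measure of its protein.

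Atf4 and its C/EBP partners bind a composite element whose core can be written TGATGNAA. These letters were looked for on both strands in RefSeq promoters (GRCm38.p6), from 250 bases before to 50 bases after each start. Of the 7 genes with a promoter entry, 2 held the core, Asns and Chac1. The core was present in 4.51% of all 27025 genes with a promoter, and in 3.97% of the 32851 promoters. The sequences below are shown because the 2 genes are direct targets of Atf4 in textbook accounts. Capitals mark the match, which begins 23 bases before the RefSeq start in Asns and 193 bases before it in Chac1, where it lies on the opposite strand. The Asns stretch lies within the first exon of the GENCODE gene model, in its 5′ untranslated part, and is limited to the match and its flanks. The Chac1 stretch ends at the last base before the gene.
Asns, chr6:7693215-7693242, minus strand: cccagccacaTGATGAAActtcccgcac
Chac1, chr2:119350992-119351228, plus strand: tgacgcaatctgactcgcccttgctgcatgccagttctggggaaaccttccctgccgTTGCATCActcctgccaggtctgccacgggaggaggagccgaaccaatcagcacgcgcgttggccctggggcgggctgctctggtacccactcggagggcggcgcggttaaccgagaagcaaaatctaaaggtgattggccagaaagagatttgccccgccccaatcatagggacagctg
No match was found in the windows of Slc3a2, Slc38a2, Atf4, Psat1 and Phgdh. None of the 7 genes held CACGTG, the E-box bound by Myc and other factors. It was present in 8.09% of all genes with a promoter, and in 7.15% of all promoters. Slc7a5, Slc1a5 and Slc38a1 are named only. In a wider list of Atf4 and stress response targets, 11 of the 27 genes with a promoter held TGATGNAA (40.7%), against 4.51% of all genes with one.

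Values are FPKM, fragments per gene divided by the gene's length and by the library size as scaled by the authors, so levels of different genes can be set beside each other. Between 13015823 and 18235095 fragments, called reads here, were recovered for each library. The second WT library (WT 2) stood apart. Its correlation with the other WT libraries was 0.779 and 0.746, where WT 1 and WT 3 correlated at 0.948 and the KO libraries at 0.963 to 0.973. Ribosomal protein genes took 24.9% of its reads against 5.76% to 7.88% elsewhere, and genes of 8000 bases or more took 6.74% against 22.9% to 26.5%. Results are therefore given with and without it, and a value that follows an adjusted p and is marked as without WT 2 is the log2 change in the other 5 libraries. Phf6 itself, the targeted gene, did not pass the test between the labelled groups over all of its exons (7.47, 3.67 and 8.02 FPKM in WT and 6.73, 5.50 and 5.11 in KO, log2 fold change -0.073 with an SE of 0.33, limma adjusted p = 0.893, and -0.37 without WT 2). The Cre deletion removes only part of the gene, so a sum over exons is a weak check of the labels.

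Levels of markers of other blood cell types also differed between the groups. All 12 neutrophil markers were higher in every WT library than in every KO library. Their summed FPKM was 34009, 95561 and 6909 in WT 1 to WT 3 and 94.3 to 292 in KO. The same held for 10 of 11 monocyte and macrophage markers (605 to 5104 against 14.8 to 24.1), for 8 of 11 B cell markers (711 to 2488 against 16.9 to 70.8) and for 8 of the 10 erythroid markers in the table (133 to 64983 against 16.7 to 121). The erythroid sum was 133, 64983 and 510 in WT 1 to WT 3, so its high end was WT 2 alone. In WT 1 it was near that of KO 1 (121). The B cell sum was 711, 2488 and 1324 in WT 1 to WT 3. Among the WT libraries, every erythroid and B cell marker was highest in WT 2. Of the 8 NK cell markers, 7 were higher in every WT library, while Gzma was higher in every KO library (12.9, 50.8 and 27.9 FPKM in WT and 587, 566 and 615 FPKM in KO) and made up most of the sum in KO, which was 571 to 619 against 224 to 377 in WT. The 13 T cell markers, of which 5 were higher in every WT and 2 in every KO library, summed to 1634 to 3484 in WT and 1568 to 2159 in KO, and none was at 0. Of all these markers, only Klra8, an NK receptor, was at 0 in all KO libraries. In bulk RNA, fewer cells of a type and less RNA of a gene per cell cannot be told apart. The part of these other cell types in the results below was not tested.

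Of the 10 genes, 9 passed the filter on low values, set at 1 FPKM or more in 3 or more libraries, and 5 of the 9 differed between KO and WT at an adjusted p under 0.05. Slc38a1, Phgdh and Psat1 were higher in KO, and Slc3a2 and Slc1a5 were lower. Slc7a5, Slc38a2, Atf4 and Asns did not pass the test, and Chac1 was under the filter. Over all 13393 genes tested, 26.4% passed, 13.1% higher and 13.3% lower in KO. Without WT 2, Atf4 joined the lower genes, which made 6 of the 9, where 52.0% of all genes passed. The groups did not overlap for 7 of the 10 genes, 4 higher in WT and 3 higher in KO, and 6 of these 7 were among the genes tested, beside 49.1% of all genes tested (26.2% higher in KO and 22.9% higher in WT). A call of a single gene is read against these shares.

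**Figure D1:**
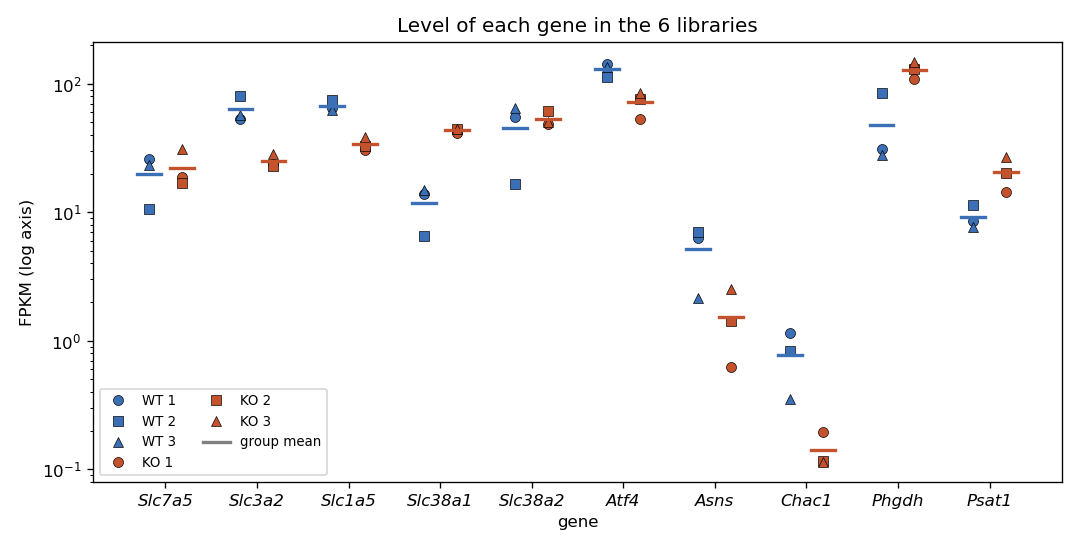
FPKM (log axis) of the 10 genes in each of the 6 libraries, with the points of the WT and KO groups drawn side by side and a bar at each group mean. Slc38a1, Phgdh and Psat1 lie higher in every KO library, Slc3a2, Slc1a5, Atf4 and Chac1 lie higher in every WT library, and Slc7a5, Slc38a2 and Asns overlap.

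Of the 2 chains of the leucine carrier, Slc3a2 was lower in KO and Slc7a5 did not pass the test. Slc3a2 (ENSMUSG00000010095, chromosome 19: 8706882 to 8723369, minus strand, GRCm38) measured 53.0, 79.5 and 57.3 FPKM in WT 1 to WT 3 and 23.7, 23.0 and 28.5 FPKM in KO 1 to KO 3. Every KO library was below every WT library, with means of 63.3 ± 14.2 (SD, n = 3) and 25.1 ± 3.02 (SD, n = 3), a level 2.52-fold higher in WT. On the log2(FPKM + 1) scale the change was -1.28 (SE 0.26, limma adjusted p = 0.0136), and it was -1.11 without WT 2 (adjusted p = 0.00181). It passed in 13 of the 18 other settings. It did not pass when any 1 KO library was left out, with an adjusted p of 0.0662, 0.0767 and 0.0507 without KO 1, KO 2 and KO 3. After rescaling to TPM, which moved the median of all genes from 0.086 to 0.86, the log2 change was -0.47 (adjusted p = 0.348).

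Slc7a5 (ENSMUSG00000040010, chromosome 8: 121881150 to 121907694, minus strand), the transporting chain, measured 25.8, 10.6 and 23.3 FPKM in WT and 18.8, 16.9 and 30.8 FPKM in KO. The groups overlapped, and the highest and the lowest value were a KO and a WT library. Means were 19.9 ± 8.15 and 22.2 ± 7.53 FPKM (SD, n = 3 each). Its log2 change was 0.20, with a 95% interval from -0.79 to 1.18 (adjusted p = 0.769), so that a change of either sign is within its error. It was -0.18 without WT 2 (adjusted p = 0.582).

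Within a library, the level of Slc3a2 was 2.06, 7.51 and 2.46 times that of Slc7a5 in WT and 1.26, 1.36 and 0.926 times in KO. All WT ratios were above all KO ratios, and an exact permutation test over the libraries gave p = 0.1, the smallest p that 3 against 3 allows. The ratio does not depend on the scaling of a library, and it was chosen after the values were seen.

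Of the other chains that pair with Slc3a2, Slc7a6, which exchanges cationic and neutral amino acids, did not pass the test (log2 change 0.35, adjusted p = 0.476, and 0.060 without WT 2). Slc7a11, the cystine carrier, measured 1.64, 0.910 and 0.167 FPKM in WT and 5.59, 2.43 and 1.29 FPKM in KO, with overlap between the groups and log2 changes of 1.05 with all libraries (adjusted p = 0.162) and 1.09 without WT 2, neither past the threshold. Slc7a7 and Slc7a8 were under the filter and not tested. Slc7a7 measured 1.15, 1.87 and 0.526 FPKM in WT and 0.227, 0.364 and 0.225 in KO. Slc7a8 measured 0.971, 1.92 and 0.477 FPKM in WT and 0.150, 0.0888 and 0.0124 in KO. Both were thus higher in every WT library at low levels.

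Of the sodium-coupled carriers, Slc1a5 was lower and Slc38a1 higher in KO, and Slc38a2 did not pass the test. Slc1a5 (ENSMUSG00000001918, chromosome 7: 16781340 to 16798274, plus strand), which exchanges glutamine for other neutral amino acids, measured 64.4, 74.7 and 62.3 FPKM in WT and 30.7, 32.8 and 38.1 FPKM in KO. No KO library reached the lowest WT library, and the means were 67.1 ± 6.66 and 33.9 ± 3.86 FPKM (SD, n = 3 each), 1.98-fold higher in WT. KO against WT gave a log2 change of -0.97 (SE 0.23, adjusted p = 0.0251) and -0.89 without WT 2 (adjusted p = 0.00350). It passed in 10 of 18 other settings. Leaving out any library other than WT 2 gave an adjusted p of 0.0520 (without WT 3) to 0.120 (without KO 2), and the value on the TPM scale was -0.15 (adjusted p = 0.794).

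Slc38a1 (ENSMUSG00000023169, chromosome 15: 96571418 to 96642913, minus strand), a net importer of glutamine, measured 13.9, 6.53 and 14.8 FPKM in WT and 41.3, 44.3 and 44.4 FPKM in KO. The KO libraries lay close together and far above every WT library, with means of 43.3 ± 1.78 and 11.7 ± 4.55 FPKM (SD, n = 3 each), 3.69-fold higher in KO and 3.02-fold higher without WT 2. The log2 change was 1.87 (SE 0.34, adjusted p = 0.00866) and 1.53 without WT 2 (adjusted p = 0.000297). Slc38a1 passed the test in 18 of 18 other settings, with log2 changes between 1.53 and 2.74.

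Slc38a2 (ENSMUSG00000022462, chromosome 15: 96687392 to 96699730, minus strand), the neighbouring carrier of the same family, which cells raise when amino acids are short, measured 54.9, 16.6 and 64.3 FPKM in WT and 48.2, 61.2 and 50.5 FPKM in KO. WT 2 was far below the other libraries, among which the groups overlapped. Its log2 change was 0.43, with a 95% interval from -0.82 to 1.68 (adjusted p = 0.592), and -0.16 without WT 2 (adjusted p = 0.417). The level of Slc38a1 was 0.253, 0.394 and 0.231 times that of Slc38a2 in WT and 0.856, 0.724 and 0.879 times in KO, without overlap (exact permutation p = 0.1, the smallest possible, for a ratio chosen after the values were seen).

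**Figure D2:**
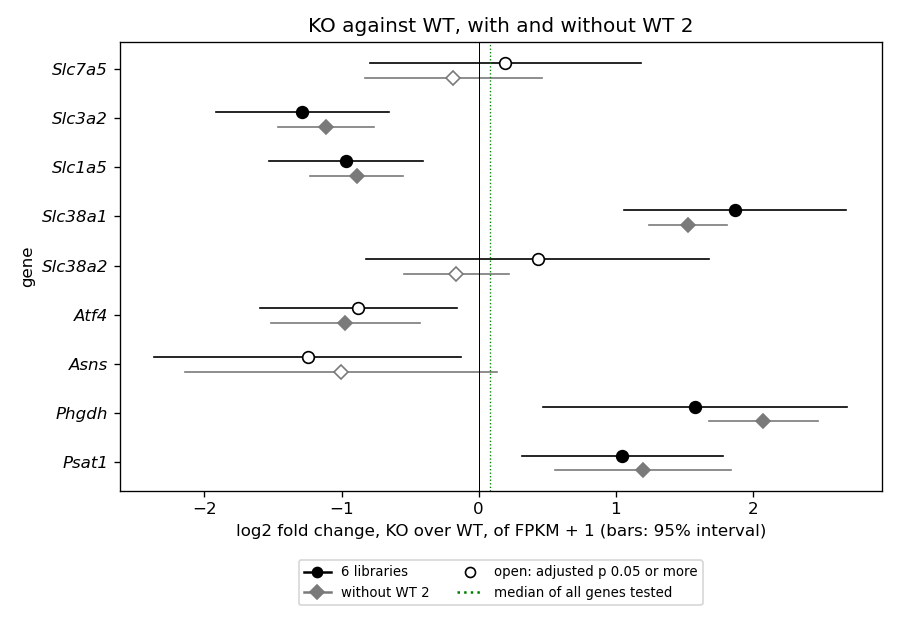
Log2 fold change of FPKM + 1, KO over WT, with its 95% interval, for the 9 genes tested, from all 6 libraries (circles) and without WT 2 (diamonds), where open symbols did not pass the test and the dotted line is the median of all genes. Slc38a1, Phgdh and Psat1 lie to the right and Slc3a2 and Slc1a5 to the left with and without WT 2, while Slc7a5 and Slc38a2 change sign without WT 2.

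Atf4 (ENSMUSG00000042406, chromosome 15: 80255184 to 80257541, plus strand) was the most abundant of the 10 RNAs in WT, at 141, 113 and 136 FPKM, and measured 52.8, 76.4 and 85.2 FPKM in KO. All KO libraries were below all WT libraries. The log2 change was -0.88, with a 95% interval from -1.59 to -0.16, and did not pass the threshold after adjustment over all genes (adjusted p = 0.0765). Without WT 2 it was -0.97 and passed (adjusted p = 0.0133). The value depended on the scaling, at -0.29 after quantile normalization and -0.047 on the TPM scale, and the adjusted p over the 18 other settings ran from 0.00191 to 0.949.

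Asns (ENSMUSG00000029752, chromosome 6: 7675169 to 7693254, minus strand), asparagine synthetase, measured 6.35, 7.03 and 2.15 FPKM in WT and 0.628, 1.42 and 2.52 FPKM in KO, from 268, 226 and 91 reads and 32, 61 and 111 reads. WT 3 was below KO 3, so the groups overlapped. Means were 5.17 ± 2.64 and 1.52 ± 0.951 FPKM (SD, n = 3 each). The log2 change of -1.25 (SE 0.47) did not pass (adjusted p = 0.0996), nor did that without WT 2 (-1.002, adjusted p = 0.118), but it passed without WT 3 (-1.68, adjusted p = 0.0310).

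Chac1 (ENSMUSG00000027313, chromosome 2: 119351229 to 119354381, plus strand), which degrades glutathione, was the least abundant of the 10, at 1.15, 0.831 and 0.355 FPKM in WT and 0.197, 0.116 and 0.114 FPKM in KO. These values rest on 29, 16 and 9 reads in WT and on 6, 3 and 3 reads in KO. Every WT library was above every KO library. Summed over the libraries of a group and divided by the library sizes that the authors used, WT was 5.32 times KO, with a 95% exact interval from 2.81 to 10.9 that covers counting error only. With no filter on low values, the log2 change of FPKM + 1, a scale that understates changes of low genes, was -0.61 (SE 0.19, adjusted p = 0.0937).

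The serine synthesis enzymes Phgdh and Psat1 were higher in KO. Phgdh (ENSMUSG00000053398, chromosome 3: 98313170 to 98339990, minus strand), which makes the first step from glycolysis to serine, measured 30.9, 84.8 and 28.1 FPKM in WT and 109, 129.6 and 146 FPKM in KO. WT 2 was nearest to the KO libraries, and no library crossed over. Means were 47.9 ± 31.9 and 128 ± 18.6 FPKM (SD, n = 3 each), 2.68-fold higher in KO, and 4.35-fold higher without WT 2. The log2 change was 1.58 (SE 0.46, adjusted p = 0.0483), close to the threshold, and 2.08 without WT 2 (adjusted p = 0.000321). It passed in 8 of 18 other settings. Leaving out any library other than WT 2 gave log2 changes of 1.30 (without WT 3) to 1.69 (without KO 1) that did not pass, with adjusted p from 0.116 (without KO 1) to 0.161 (without KO 3).

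Psat1 (ENSMUSG00000024640, chromosome 19: 15904678 to 15947337, minus strand), the aminotransferase of the next step, measured 8.48, 11.4 and 7.61 FPKM in WT and 14.3, 20.1 and 26.9 FPKM in KO. All KO libraries were above all WT libraries, with means of 20.4 ± 6.30 and 9.17 ± 1.99 FPKM (SD, n = 3 each), 2.22-fold higher in KO. KO against WT gave a log2 change of 1.05 (SE 0.31, adjusted p = 0.0478) and 1.20 without WT 2 (adjusted p = 0.0113). It passed in 9 of 18 other settings and did not pass without any 1 of WT 1, WT 3, KO 1, KO 2 or KO 3 (log2 change 0.84 to 1.27, adjusted p 0.0580 to 0.178).

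Psph, the phosphatase that completes serine, did not pass with all libraries (log2 change 0.21, adjusted p = 0.633) and passed without WT 2 (0.46, adjusted p = 0.0460). Shmt2, the mitochondrial enzyme that turns serine to glycine, had a log2 change of 0.081 (adjusted p = 0.897) and of 0.34 without WT 2. The pathway was thus called at its first 2 enzymes in the full set of libraries. Phgdh was 3.65, 7.42 and 3.69 times as abundant as Psat1 in WT and 7.65, 6.46 and 5.45 times in KO, and these ratios overlapped (exact permutation p = 0.3).

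In WT the order of the mean levels was Atf4, Slc1a5, Slc3a2, Phgdh, Slc38a2, Slc7a5, Slc38a1, Psat1, Asns and Chac1. Only Atf4, Psat1 and Asns were set apart from the gene that followed by ranges that did not overlap. With WT 2 included, the order from Slc1a5 to Psat1 is thus within the spread of neighbours. Without WT 2 the means were 63.3 FPKM for Slc1a5, 59.6 for Slc38a2, 55.2 for Slc3a2 and 29.5 for Phgdh. Those of Slc7a5, Slc38a1 and Psat1 were 24.5, 14.4 and 8.05 FPKM. Slc38a2 then stood before Slc3a2 and Phgdh. Only its ranges with Slc1a5 and with Slc3a2 overlapped among neighbours in WT 1 and WT 3. In KO the order was Phgdh, Atf4, Slc38a2, Slc38a1, Slc1a5, Slc3a2, Slc7a5, Psat1, Asns and Chac1, where the ranges of Atf4 and Slc38a2, of Slc3a2 and Slc7a5, and of Slc7a5 and Psat1 overlapped and the other neighbours were apart. Phgdh was 0.219, 0.747 and 0.207 times as abundant as Atf4 in WT and 2.07, 1.70 and 1.72 times in KO, so that the order of the 2 genes was opposite in every library of the 2 groups (exact permutation p = 0.1, the smallest possible, chosen after the values were seen). This ratio too does not depend on the scaling of a library.

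**Figure D3:**
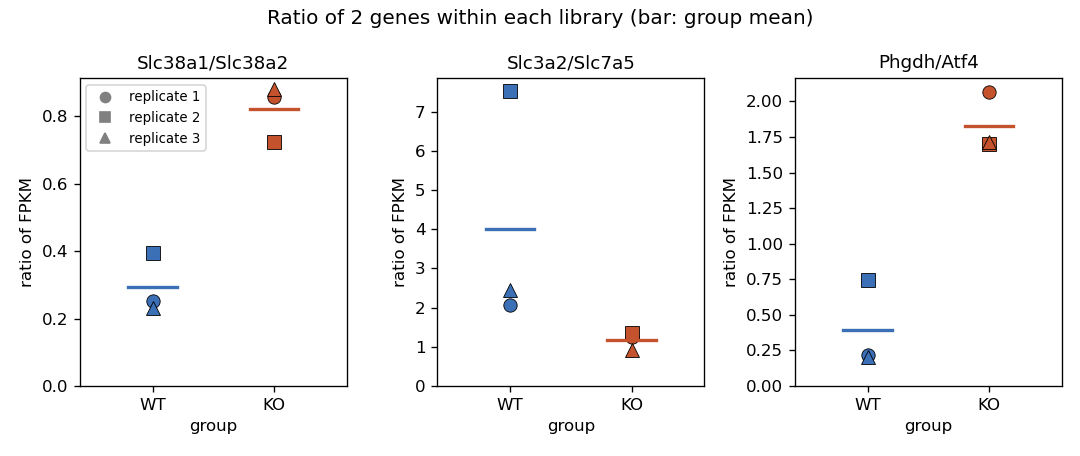
Ratio of the FPKM of 2 genes within each library (linear axes from 0), for Slc38a1 over Slc38a2, Slc3a2 over Slc7a5 and Phgdh over Atf4, with 1 point for each library of WT and KO and a bar at each group mean. The groups are apart in all 3 ratios, from 0.231 to 0.394 in WT and 0.724 to 0.879 in KO for the first, and the WT point that lies apart from the other WT points is WT 2 in each.

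Among 33 amino acid carriers, 18 were tested, of which 3 were higher and 2 lower in KO, with a median log2 change of 0.39 beside 0.086 over all genes tested. Without WT 2 these were 5 and 4, with a median of 0.15 beside 0.040. Of all genes tested, 26.4% passed with all libraries and 52.0% without WT 2. The counts called in this list and in the next lists are read beside these shares. The called genes that have not yet been described were Slc38a9 and Slc16a10. Slc38a9, a lysosomal carrier that signals arginine to mTORC1, measured 2.52, 1.40 and 3.47 FPKM in WT and 16.5, 18.2 and 12.1 FPKM in KO (log2 change 2.29, adjusted p = 0.00350, and 2.04 without WT 2). Slc16a10, an aromatic amino acid carrier, measured 1.78, 2.88 and 0.728 FPKM in WT and 5.82, 6.38 and 5.87 FPKM in KO (log2 change 1.40, adjusted p = 0.0240, and 1.68 without WT 2). Both were higher in every KO library. Slc38a9 passed in 18 of 18 other settings and Slc16a10 in 12 of 17, but not without WT 1, KO 1, KO 2 or KO 3 (adjusted p 0.0649 to 0.0969).

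Of 31 Atf4 and stress response targets, 20 were tested, with 3 higher and 6 lower in KO and a median log2 change of -0.28 (3 and 8 without WT 2, median -0.48). The list thus held genes that moved in opposite directions. Of the 6 lower, Atf3 and Pck2 met the filter on low values only through WT, where they were high. Over all genes tested, 13.1% were higher and 13.3% lower with all libraries, and 52.0% passed without WT 2. Ddit4, an inhibitor of mTORC1, measured 16.1, 16.0 and 20.8 FPKM in WT and 218, 147 and 137 FPKM in KO (log2 change 3.15, adjusted p = 0.000767, and 3.09 without WT 2). Ppp1r15a, the subunit that brings a phosphatase to eIF2, measured 66.3, 136 and 119 FPKM in WT and 11.6, 8.56 and 9.58 FPKM in KO (log2 change -3.26, adjusted p = 0.00118, and -3.06 without WT 2). Neither gene had any overlap between the groups, and both passed in 18 of 18 other settings.

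The transcription factors Atf3 and Cebpb were also lower in KO. Atf3 measured 22.7, 33.0 and 8.09 FPKM in WT and 0.125, 0.0295 and 0.144 FPKM in KO (log2 change -4.14, adjusted p = 0.00194, and -3.74 without WT 2). Cebpb, a C/EBP partner that myeloid cells express strongly, measured 97.1, 219 and 43.4 FPKM in WT and 3.53, 5.36 and 5.91 FPKM in KO (log2 change -4.08, adjusted p = 0.00365, and -3.50 without WT 2). Over the WT libraries, Cebpb and Atf3 were highest in WT 2 and lowest in WT 3, as was the neutrophil marker sum given above. The same order was seen in Slc1a5, lower in KO, and in Phgdh, Psat1 and Slc16a10, higher in KO. The part of the neutrophils in these differences was not tested. Sesn2 and Pck2 were the other genes called lower, besides Slc3a2. Pck2 measured 2.15, 10.6 and 2.02 FPKM in WT and 0.0413, 0 and 0.0557 FPKM in KO. Atf3 and Pck2 were thus under 1 FPKM in every KO library. As both met the filter only through WT, their calls are not taken as support.

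Ddit3 and Trib3, a stress-induced factor and an inhibitor of Atf4 signalling, were not called in the full set. Ddit3 measured 14.1, 119 and 15.2 FPKM in WT and 8.24, 7.45 and 7.72 FPKM in KO, so that 1 WT library was far above the others (log2 change -1.81, adjusted p = 0.151). Without that library, WT 2, the change was -0.83 and passed (adjusted p = 0.00344). Trib3 was under the filter, at 0.915, 1.16 and 0.941 FPKM in WT and 0.834, 0.897 and 1.75 FPKM in KO.

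Of 17 kinases and factors of eIF2, all tested, 2 were higher and 1 was lower in KO (6 and 3 without WT 2). Beside these stand 26.4% of all genes tested with all libraries and 52.0% without WT 2. Eif2ak3, the kinase that senses stress in the endoplasmic reticulum, measured 10.7, 4.02 and 9.34 FPKM in WT and 33.3, 16.8 and 20.9 FPKM in KO (log2 change 1.49, adjusted p = 0.0431, and 1.11 without WT 2). Eif2ak2, the kinase that senses double-stranded RNA, measured 6.72, 3.86 and 6.51 FPKM in WT and 11.5, 10.1 and 15.0 FPKM in KO (log2 change 0.99, adjusted p = 0.0488, and 0.78 without WT 2). Eif2ak4, the amino acid sensor, was not past the threshold (0.51, adjusted p = 0.293, and 0.25 without WT 2), nor was Eif2ak1, the haem sensor (0.17, adjusted p = 0.654, and 0.30 without WT 2). Eif2ak3 passed in 10 of 18 other settings and Eif2ak2 in 7 of 18. With any 1 library other than WT 2 left out neither passed, with adjusted p of 0.0552 (without WT 1) to 0.155 (without KO 1) for Eif2ak3 and 0.0709 (without WT 3) to 0.191 (without KO 3) for Eif2ak2. Ppp1r15a was the gene called lower.

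The numbers called in the lists of enzymes and sensors that follow are to be read beside the 26.4% of all genes that passed with all libraries and the 52.0% that passed without WT 2. Of 20 serine, glycine and one-carbon enzymes, 16 were tested, with 3 higher, 1 lower and a median of 0.42 (8 and 1 without WT 2). Shmt1, the cytosolic enzyme of serine and glycine exchange, joined Phgdh and Psat1 (log2 change 1.22, adjusted p = 0.0232, and 1.34 without WT 2). Without WT 1, WT 3, KO 2 or KO 3, Shmt1 did not pass (adjusted p 0.0636 to 0.113). Of 28 enzymes of glutamine, asparagine, proline and the branched-chain amino acids, 21 were tested, with 2 higher, 4 lower and a median of -0.38 (7 and 6 without WT 2, when the median was 0.11).

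In that list the parts of 1 enzyme moved apart. Bckdha, the alpha chain of the dehydrogenase that commits branched-chain amino acids to breakdown, measured 4.84, 2.37 and 4.82 FPKM in WT and 28.4, 22.7 and 19.2 FPKM in KO (log2 change 2.31, adjusted p = 0.00312, and 2.05 without WT 2). Bckdhb, the beta chain with which it forms the active site, measured 5.85, 7.82 and 7.83 FPKM in WT and 0.238, 0.282 and 0.207 FPKM in KO (log2 change -2.71, adjusted p = 0.000486, and -2.65 without WT 2). Dbt, the core of the same complex, was higher in KO (1.18, adjusted p = 0.00967, and 1.15 without WT 2). Glud1, glutamate dehydrogenase, was lower (-1.33, adjusted p = 0.00792, and -1.25 without WT 2), as were Arg2, an arginase (-2.48, adjusted p = 0.0109, and -2.37 without WT 2), and Got1. Bckdha and Bckdhb passed in every other setting in which they were tested, 18 and 17 in number. Bckdhb and Arg2 were under 1 FPKM in every KO library. Both met the filter only through WT, where they were high, so their counts of settings are not taken as support. Without 1 library, Dbt did not pass (0.0636 without KO 2 and 0.0570 without KO 3, adjusted p), nor did Glud1 (0.0551 without KO 2) or Arg2 (0.0548 without KO 1).

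Of the 20 cytosolic aminoacyl-tRNA synthetases, all tested and many of them also targets of Atf4, 2 were higher and none was lower in KO (5 and 0 without WT 2), with a median of 0.060. They were Tars (log2 change 1.09, adjusted p = 0.0159, and 1.08 without WT 2) and Dars (0.89, adjusted p = 0.0417, and 1.002 without WT 2), the threonine and aspartate enzymes. At an unadjusted limma p under 0.05, 3 were higher and 0 lower, where 2596 and 2422 of all 13393 genes tested were higher and lower. The 2 called higher are read beside the 13.1% of all genes tested that were higher. Voom on recovered reads also called 0 lower. Tars did not pass without WT 1, KO 2 or KO 3 (adjusted p 0.0514 to 0.0884), and Dars did not without any 1 library other than WT 2 (0.0761 to 0.169). Of 35 genes of mTORC1 and amino acid sensing, 34 were tested, with 4 higher and 4 lower (7 and 6 without WT 2) and a median of 0.16. Besides Slc38a9, the higher genes were Deptor, an mTOR inhibitor (1.27, adjusted p = 0.0138, and 1.23 without WT 2), Mios (1.13, adjusted p = 0.0126, and 1.07 without WT 2) and Seh1l, both parts of a GATOR complex. The lower genes were the arginine sensor Castor1 (-2.28, adjusted p = 0.00552, and -1.92 without WT 2) and its relative Castor2 (-1.07, adjusted p = 0.00426, and -1.04 without WT 2), the GTPase Rragd (-0.82, adjusted p = 0.0198, and -0.85 without WT 2) and the leucine sensor Sesn2. Castor1 measured 4.28, 10.5 and 4.71 FPKM in WT and 0.341, 0.242 and 0.829 in KO. Castor2 measured 1.36, 1.44 and 1.21 FPKM in WT and 0.206, 0.0168 and 0.123 in KO. Rragd measured 1.26, 1.13 and 1.31 FPKM in WT and 0.342, 0.442 and 0.0480 in KO. Deptor was also low, at 0.635, 0.288 and 0.196 FPKM in WT and 2.98, 2.65 and 1.43 in KO. The log2 scale of FPKM + 1 understates changes of such low genes. Castor1 and Castor2 passed in 17 of 17 other settings. However, Castor1, Castor2 and Rragd were under 1 FPKM in every KO library, and Deptor in every WT library. They met the filter only through the group where they were high, so their counts of settings are not taken as support. Mios did not pass without any 1 KO library (adjusted p 0.0612 to 0.0707), Deptor without KO 1 or KO 2 (0.0510 and 0.0578) and Rragd without WT 1, WT 3, KO 1 or KO 3 (0.0554 to 0.0661).

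**Figure D4:**
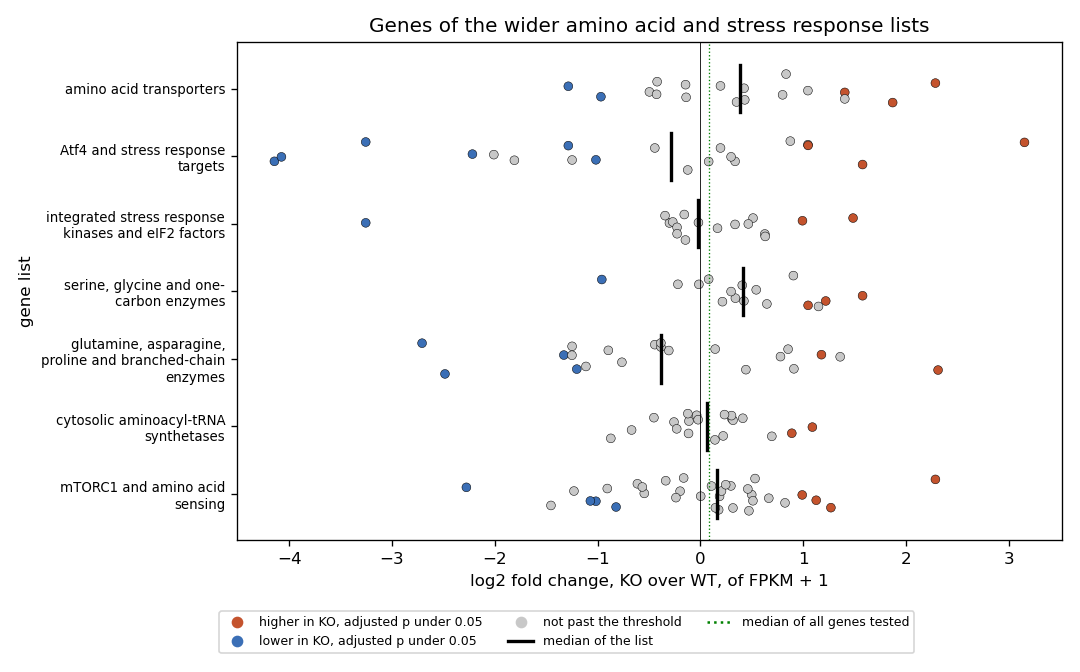
Log2 fold change of FPKM + 1, KO over WT, for each tested gene of the 7 wider lists, with genes past the threshold in colour, a black bar at the median of each list and a dotted line at the median of all genes tested (0.086). Genes past the threshold lie on both sides in 6 of the 7 lists. The synthetases have only higher ones, 2 of 20, beside 13.1% higher and 13.3% lower over all genes tested.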

How the data were processed

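RNA-seq of BM cells gave 6 libraries, 3 of each Phf6 genotype (WT and KO per the labels). The authors extracted RNA with Trizol, used a NEBNext kit and sequenced paired ends on a NovaSeq instrument. The submitters' processing notes list HISAT2 2.0.5, featureCounts 1.5.0-p3 and the GRCm38 build. The deposited table gives FPKM per gene, and the use of strand is not given in the sources used here. No exon of the 10 genes overlaps another gene in GENCODE M21, and the deposited coordinates of all 10 match it. Multiplied by gene length, 100% of the FPKM values came out as whole reads (within 0.01 of a read), and these reads were used as recovered. The authors' library size was 0.645 to 1.21 times the recovered total, so a scaling factor is part of the deposited FPKM.

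The study used a model for raw counts. As the deposited unit is FPKM, log2(FPKM + 1) was tested here with limma 3.58.1 in R 4.3.3 (trend, two-sided, Benjamini-Hochberg over 13393 genes, threshold 0.05), after a check on simulated data. Ratios were tested with SciPy 1.17.1. The alternatives were pseudocounts of 0.1 and 0.5, no filter, a stricter filter (mean FPKM of 5 or more), scaling by median of ratios, quantiles or TPM, no trend, array weights, a replicate block, voom on recovered reads, protein-coding genes only and each library left out.

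The genes and lists were chosen with earlier results of these data known. The genes named were all 10, up to 3 others per list and direction with the smallest p, and Phf6, Psph, Shmt2, Slc7a6, Slc7a7, Slc7a8, Slc7a11, Eif2ak1 to Eif2ak4, Trib3 and Ddit3. Seh1l, Sesn2, Pck2 and Got1 were outside this rule and were named after their values were seen, to complete counts. A gene that the rule selects is not reported here.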

Additional observations from a re-analysis of the deposited data

How the results depend on the processing

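Over the 9 genes tested, 161 values under other settings were computed, of which 120 kept their direction and their side of the threshold, 32 lost the call, 4 gained it and 5 changed sign. Those that changed sign were Slc7a5 (-0.26 with array weights, and -0.18 to 0.42 with 1 library left out) and Slc38a2 (-0.022 with array weights, and -0.16 to 0.79), neither of which passed the test in any of these. Phf6 was 0.69 on the TPM scale and -0.37 to 0.10 with 1 library left out, and Shmt2 was -0.17 to 0.34. The cause was not tested. Over all genes, 3539 were called (1754 higher and 1785 lower), against 786 and 1051 with a mean FPKM of at least 5, 4388 and 4073 with array weights, 2279 and 1081 on the TPM scale, 3584 and 3383 without WT 2, and 938 to 989 and 996 to 1082 with 1 KO library left out.

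Of the 10 genes, 3 were higher and 2 lower. The number higher was 1 with no filter, with a mean FPKM of at least 5 and with voom, and 1 to 3 with 1 library left out. The number lower was 1 after quantile normalization, 0 on the TPM scale, 4 with array weights and 0 to 3 with 1 library left out. For carriers, higher was 5 with array weights and 2 to 5 with 1 library left out, and lower was 1 (quantile), 0 (TPM), 5 (array weights) and 0 to 4. For Atf4 targets, higher was 1 with no filter, a mean of at least 5 and voom, and 1 to 3, and lower was 10 with array weights and 3 to 8. For kinases and factors of eIF2, higher was 0 at a pseudocount of 0.1, 1 at 0.5, 0 with no filter, 1 with a mean of at least 5, 7 with array weights and 0 to 6, and lower was 4 with array weights and 1 to 3. For serine, glycine and one-carbon enzymes, higher was 1 with no filter, a mean of at least 5 and voom, 5 (TPM), 10 (array weights) and 0 to 8, and lower was 0 with a mean of at least 5 and on the TPM scale, and 0 to 1. For glutamine to branched-chain enzymes, higher was 5 (TPM), 7 (array weights) and 1 to 7, and lower was 2 with a mean of at least 5, 2 (TPM), 7 (array weights) and 2 to 6. For synthetases, higher was 1 with no filter, a mean of at least 5 and voom, 5 (TPM), 8 (array weights) and 0 to 5. For mTORC1 and sensing, higher was 2 with a mean of at least 5, 9 with array weights and 1 to 7, and lower was 0 with a mean of at least 5, 2 (TPM), 8 (array weights) and 2 to 6. In each pair of bounds the last values are those with 1 library left out.

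For samples with the same replicate number, the correlations of their deviations from the group mean were 0.0954, 0.105 and -0.153. For samples with other numbers they ran from -0.195 to 0.232. With 3 libraries per group, these values cannot settle whether the numbers pair the samples. With the replicate number as a block, 2676 genes were called, and of the 10 genes 1 was higher (Slc38a1) and 0 were lower. With the block, the calls higher and lower were 3 and 0 among carriers, 1 and 4 among Atf4 targets, 1 and 1 among kinases and factors of eIF2, 0 and 0 among serine enzymes, 1 and 3 among glutamine to branched-chain enzymes, 0 and 0 among synthetases and 2 and 2 in the mTORC1 list.

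With 3 libraries per group, an exact permutation test cannot go below p = 0.1. Chac1 rests on 3 to 29 reads per library, which limits it more than the other genes.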
